A study of Mus musculus with 6 samples.

Results

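Lipid droplet and lipolysis genes were followed here as a set of 10: the droplet coat genes Plin1, Plin2, Plin4 and Plin5, the CIDE genes Cidea and Cidec, the lipases Pnpla2, Lipe and Mgll, and the lipase co-activator Abhd5. They were taken by gene symbol from the 22180 genes whose array probe sets carry exactly 1 symbol, with the brightest probe set kept for each gene, and each of the 10 had exactly 1 such probe set. RNA came from the stromal vascular fraction (SVF) of gonadal white adipose tissue (gWAT), which is the mixture of cells left when collagenase-digested fat is separated from its floating mature adipocytes. All 6 samples were from wild-type C57Bl/6 mice of 8 weeks by the labels, each hybridised to an Affymetrix Mouse Gene 2.0 ST array. In the vehicle group there were 3 labelled biological replicates, and in the other group 3 that received CL316243 (CL), an agonist of the β3-adrenergic receptor. CL was given i.p. on 3 days in a row, in 1 daily dose of 1 mg/kg (volume 0.1 ml). The study asked how genes of blood vessel growth behave while white fat turns beige, and its general methods describe younger female mice for fractionation and a longer CL course, so sex and the exact schedule of these samples are not settled. Whether a replicate was 1 mouse or a pool is not given in the sources used here.

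Adipocytes store triglyceride in a droplet whose surface is covered by perilipins. Under β-adrenergic stimulation, cAMP activates protein kinase A, which phosphorylates perilipin 1 and hormone-sensitive lipase, and the co-activator CGI-58 (Abhd5) leaves perilipin 1 and activates adipose triglyceride lipase (Pnpla2). Triglyceride is then cut in steps by adipose triglyceride lipase, hormone-sensitive lipase (Lipe) and monoacylglycerol lipase (Mgll), while CIDE proteins act in the opposite sense by fusing small droplets into larger ones. Most of this control is exerted on proteins, and the arrays measured RNA only.

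The promoter stretches of 3 genes are shown, those of Plin1 and Abhd5 because they were the 2 genes whose CL arrays all lay above the vehicle arrays, and that of Plin2 because it held the only match to a DR1 element among the genes matched. Each is the 250 bases before the RefSeq start in build GRCm38.p6, read 5′ to 3′ on the strand of the gene, with motif matches in capitals.
Plin1, chr7:79732777-79733026, minus strand: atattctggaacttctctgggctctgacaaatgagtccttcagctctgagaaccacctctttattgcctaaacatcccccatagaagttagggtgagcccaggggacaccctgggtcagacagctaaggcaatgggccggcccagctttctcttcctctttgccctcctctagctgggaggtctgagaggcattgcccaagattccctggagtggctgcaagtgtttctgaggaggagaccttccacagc
Abhd5, chr9:122351366-122351615, plus strand: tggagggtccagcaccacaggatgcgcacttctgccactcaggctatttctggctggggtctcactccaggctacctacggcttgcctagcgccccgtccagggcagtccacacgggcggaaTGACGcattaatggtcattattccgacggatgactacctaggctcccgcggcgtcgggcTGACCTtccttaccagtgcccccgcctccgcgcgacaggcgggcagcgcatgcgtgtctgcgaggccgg
Plin2, chr4:86670060-86670309, minus strand: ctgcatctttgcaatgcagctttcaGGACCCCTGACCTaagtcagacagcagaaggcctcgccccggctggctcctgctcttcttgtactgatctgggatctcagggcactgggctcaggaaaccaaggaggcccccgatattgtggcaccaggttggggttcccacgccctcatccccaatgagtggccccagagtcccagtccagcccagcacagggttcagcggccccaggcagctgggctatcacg
The 3 motifs searched on both strands were AGGTCA, the core hexamer of nuclear receptors such as PPARγ, AGGTCANAGGTCA with up to 2 mismatches, the DR1 element bound by PPARγ with RXR, and TGACG, the core letters of a CREB site. The Plin1 stretch held none of them. Abhd5 held AGGTCA on its minus strand 69 bases before the start and TGACG on its plus strand 128 bases before the start. In Plin2 the DR1 match, with 2 mismatches, and an AGGTCA match overlapped on the minus strand, 225 and 218 bases before the start. Of 13 start stretches belonging to 9 of the 10 genes, 1 other held a match, an AGGTCA in 1 of the Plin5 starts, 170 bases before it. Over all 32851 mouse starts, 14% held AGGTCA, 3.24% held the DR1 element and 17.8% held TGACG. A match is a run of letters and not a measured site.

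Levels are log2 values after RMA normalisation, and a level of 3.59, the 95th percentile of 1390 olfactory and vomeronasal receptor genes, was taken as background. Of all 22180 genes, 44 were higher in CL (0.198%) and 28 were lower (0.126%) at an adjusted p under 0.05 (limma, Benjamini-Hochberg over all genes), and these became 25 and 32 after quantile normalisation, and 23 and 30 after cyclic loess. Before adjustment, 9.4% of genes were higher and 5.38% were lower at a p under 0.05. In 11.2% of genes the CL arrays all lay above the vehicle arrays, and in 8.72% they all lay below. Vehicle replicate 2 and CL replicate 2 stood apart in epithelial genes: Krt18, a keratin of simple epithelia, was at 9.01 and 9.90 in them and between 5.01 and 7.62 in the other arrays, and the median of 7 reproductive tract epithelial markers lay 1.12 and 2.37 above its vehicle level. CL replicate 3 stood apart in skeletal muscle markers, whose median lay 1.80 above. CL replicate 1 had the highest Ucp1, the uncoupling protein of brown and beige fat, at 6.54 against 4.12 and 3.99 in the other CL arrays. Among markers of SVF cells, Cd34 of progenitors lay between 10.55 and 10.99 and Pdgfra between 8.47 and 9.63. The macrophage markers Cd68, Csf1r and Adgre1 lay between 9.78 and 10.26, 9.29 and 9.885, and 8.09 and 8.58. The endothelial markers Cdh5, Pecam1 and Kdr lay between 9.76 and 11.06, 8.37 and 10.07, and 8.09 and 9.63. Of adipocyte markers, Car3 lay between 11.24 and 11.96, Retn between 7.50 and 9.05 and Adipoq between 6.65 and 8.55. Undigested fat holds the SVF cells too, and the arrays held no adipocyte fraction, so the purity of the SVF was not tested.

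None of the 10 genes passed the adjusted threshold in either direction (limma), nor with the other test tried. Before adjustment 2 of them, Plin1 and Abhd5, were higher in CL and 1, Plin4, was lower, beside the 9.4% and 5.38% of all genes. Plin1 and Abhd5 were also the 2 genes whose groups did not overlap, both with CL above, beside the background of 11.2%, and in the other 8 genes the arrays of the groups overlapped. By sign, 5 had a higher mean and 5 a lower mean in CL, and their median log2 fold change was 0.02, beside 0.0022 for all genes. The individual changes ran from −0.59 for Plin4 to 1.44 for Plin1. In bulk RNA, fewer cells of a type and less RNA per cell cannot be told apart, which holds for every value given here.

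**Figure D1:**
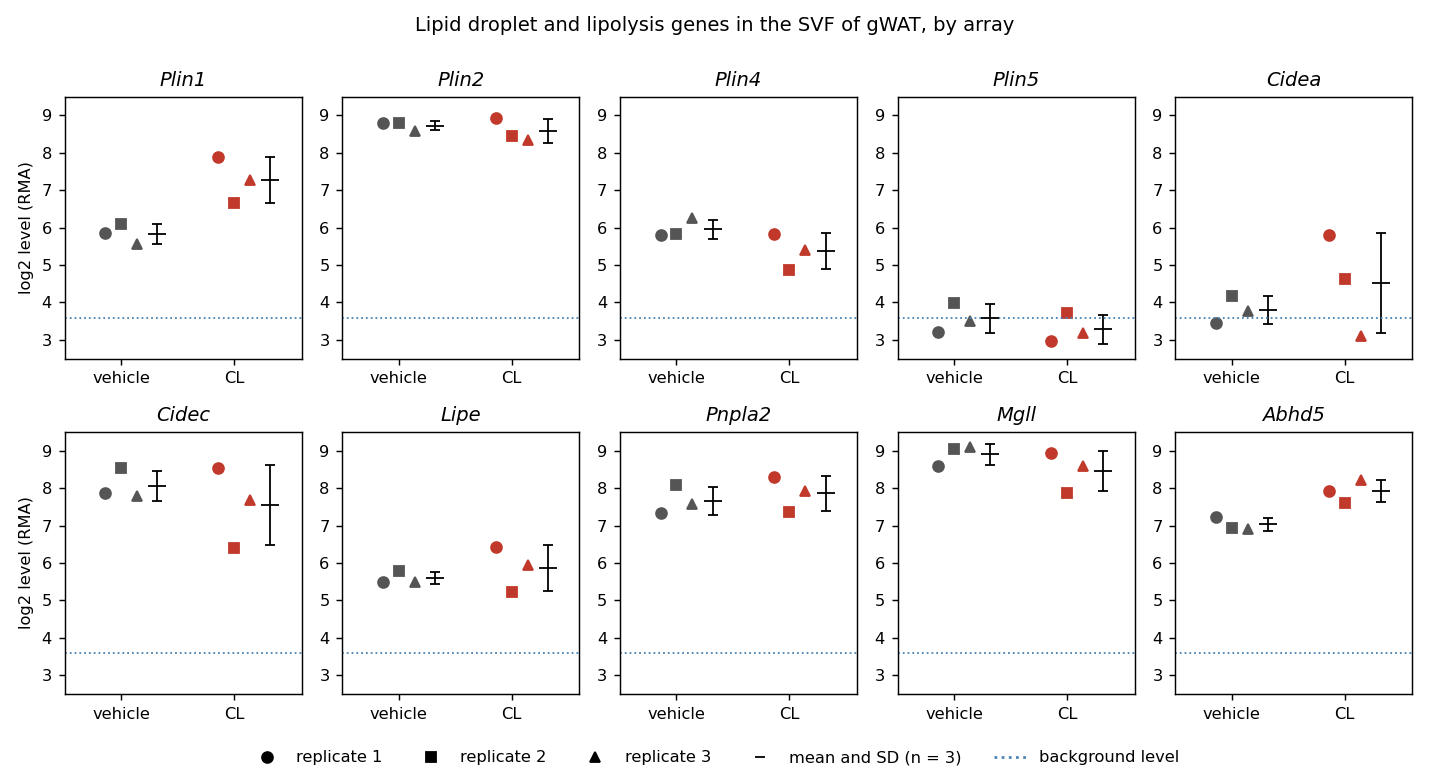
Log2 RMA level of each of the 10 genes on each array (vertical axis) in the vehicle and CL groups, with the mean and SD of 3 arrays beside the points, the replicate number as the marker and the background level of 3.59 dotted. Plin1 and Abhd5 have all CL points above all vehicle points, the other 8 genes overlap, and the Plin5 points lie near background.

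Among coat proteins, Plin1, the perilipin of adipocytes that restrains lipolysis at rest, had levels of 5.85, 6.10 and 5.57 in vehicle replicates 1, 2 and 3, and of 7.90, 6.67 and 7.28 in CL replicates 1, 2 and 3. The lowest CL array, replicate 2, was above the highest vehicle array, also replicate 2. The means were 5.84 ± 0.27 and 7.28 ± 0.62 (SD, n = 3 each), a difference of 1.44 (SE 0.29, 95% interval 0.78 to 2.10), or 2.72-fold, with an adjusted p of 0.0816 (limma). By size the change ranked 26 from the top among the 22180 genes, with an SD in CL more than 2 times that in vehicle.

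Plin2, the coat protein found on droplets of most cell types, macrophages included, had levels of 8.80, 8.79 and 8.59 in vehicle and of 8.94, 8.44 and 8.34 in CL. The CL arrays fell on both sides of the vehicle arrays, with replicate 1 above all of them and replicates 2 and 3 below all of them. The difference was −0.15 (SE 0.18, 95% interval −0.57 to 0.26), with an adjusted p of 0.763 (limma). The interval leaves out a change of the size measured for Plin1.

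Plin4, a coat protein of newly forming droplets in adipocytes, had levels of 5.81, 5.82 and 6.25 in vehicle and of 5.84, 4.88 and 5.41 in CL. CL replicate 1 lay among the vehicle arrays and the other 2 lay below them. The difference was −0.59 (SE 0.25, 95% interval −1.15 to −0.03), with an adjusted p of 0.315 (limma). It ran from −0.82 to −0.34 as single arrays were left out, and its p before adjustment was no longer under 0.05 without vehicle replicate 2, vehicle replicate 3, CL replicate 2 or CL replicate 3. Plin4 and Plin1 thus had changes of opposite sign, and the difference between them is followed array by array after the single genes.

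Plin5, the perilipin of oxidative tissues, had levels of 3.22, 3.99 and 3.50 in vehicle and of 2.95, 3.71 and 3.19 in CL. In 4 of the 6 arrays its level was below the background level, and its difference of −0.29 (SE 0.25, adjusted p 0.653, limma) was among dim values. RefSeq places Plin4 and Plin5 on the same strand of chromosome 17.

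Cidea, a CIDE protein that is abundant in brown and beige fat, was the most scattered gene. Its levels were 3.44, 4.18 and 3.76 in vehicle and 5.79, 4.63 and 3.11 in CL. CL replicate 1 was the highest array of all and CL replicate 3 the lowest of all, and the latter and vehicle replicate 1 were below background. The difference was 0.72 (SE 0.56, 95% interval −0.55 to 1.98), with an adjusted p of 0.610 (limma), and it was 0.08 without CL replicate 1 and 1.42 without CL replicate 3. The array that was highest in Cidea was also highest in Ucp1, and Cox8b, a cytochrome oxidase subunit of brown and beige fat, had 9.78 there against 7.83 and 8.07 in the other CL arrays.

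Cidec, the CIDE protein of white adipocytes that builds the single large droplet, had levels of 7.86, 8.53 and 7.79 in vehicle and of 8.55, 6.41 and 7.69 in CL. CL replicate 1 was slightly above the highest vehicle array, whereas CL replicate 2 was more than 1 log2 unit below the lowest. The difference of −0.51 (SE 0.46, 95% interval −1.57 to 0.54, adjusted p 0.670, limma) rested on that array: without CL replicate 2 it was 0.06, and without both arrays that were high in epithelial genes it was 0.29. Those arrays were also the highest vehicle array and the lowest CL array of Cidec.

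Among the enzymes, Pnpla2, which takes the first fatty acid from triglyceride, had levels of 7.32, 8.08 and 7.59 in vehicle and of 8.29, 7.36 and 7.92 in CL. The groups overlapped over most of their range, and the difference was 0.20 (SE 0.27, 95% interval −0.41 to 0.80, adjusted p 0.792, limma). Without CL replicate 1 the difference was −0.02.

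Abhd5, which binds perilipin 1 at rest and activates Pnpla2 when released, had levels of 7.23, 6.94 and 6.92 in vehicle and of 7.93, 7.61 and 8.21 in CL. Every CL array was above every vehicle array, and here CL replicate 3 was the highest. The means were 7.03 ± 0.17 and 7.92 ± 0.30 (SD, n = 3 each), a difference of 0.89 (SE 0.19, 95% interval 0.47 to 1.31), or 1.85-fold, with an adjusted p of 0.0857 (limma). Leaving out any single array kept the difference between 0.74 and 1.04, a narrower range than the 1.13 to 1.75 of Plin1.

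Lipe, the main diacylglycerol lipase of adipocytes, had levels of 5.50, 5.78 and 5.50 in vehicle and of 6.43, 5.22 and 5.94 in CL. CL replicates 1 and 3 were above the vehicle arrays and replicate 2 was below them. The difference was 0.27 (SE 0.28, 95% interval −0.35 to 0.90, adjusted p 0.712, limma), and −0.01 without CL replicate 1.

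Mgll, which cuts the last fatty acid from glycerol, had levels of 8.59, 9.04 and 9.09 in vehicle and of 8.93, 7.88 and 8.59 in CL. CL replicate 2 was again the lowest array, and CL replicate 3 was level with the lowest vehicle array. The difference was −0.44 (SE 0.27, 95% interval −1.04 to 0.17, adjusted p 0.504, limma). It was −0.14 without CL replicate 2 and −0.08 without both arrays high in epithelial genes.

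**Figure D2:**
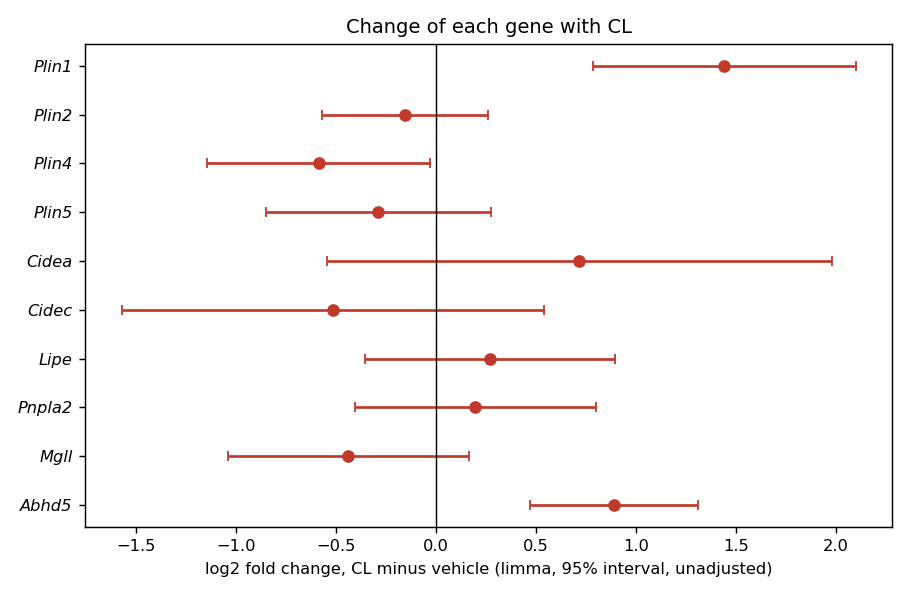
Log2 fold change of each gene, CL minus vehicle (horizontal axis), with its unadjusted 95% interval from limma over 3 arrays a group. The intervals of Plin1 (0.78 to 2.10) and Abhd5 (0.47 to 1.31) lie above 0, that of Plin4 (−1.15 to −0.03) lies just below 0, and the other 7 include 0.

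The same arrays recurred at the ends of the groups. Among the 3 CL arrays, replicate 1 was the highest in 8 of the 10 genes and replicate 2 the lowest in 7 of them, whereas over the 13363 genes above background replicate 1 was the highest in 3624 and replicate 2 the lowest in 3197. Among the vehicle arrays, replicate 2 was the highest in 6 of the 10 genes. The median of the 10 genes lay 0.56 from its vehicle level in CL replicate 1, −0.29 in replicate 2 and −0.34 in replicate 3.

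Other markers moved with these arrays. Of 18 adipocyte markers measured, 11 were highest in CL replicate 1 and 15 were lowest in CL replicate 2 among the CL arrays, and their median deviations from vehicle were 0.63, −0.22 and 0.14 in CL replicates 1, 2 and 3. Their summed level, as log2, ran from 11.99 to 12.38 in vehicle and from 11.89 to 12.67 in CL, and 3 of them had a mean below background. Such a sum is taken on linear values, so the brightest gene weighs most, here Car3 at 11.24 to 11.96. Of 16 endothelial markers, 13 were highest in CL replicate 1 and 14 lowest in CL replicate 2. Their summed level ran from 13.07 to 13.53 in vehicle and from 12.17 to 12.96 in CL, with Gpihbp1 the brightest (10.51 to 11.96). Vehicle replicate 2, by contrast, was the highest vehicle array in 16 of these and in 11 of the adipocyte markers. None of the adipocyte or endothelial markers passed the adjusted threshold (limma). Before adjustment, 3 of the 18 adipocyte markers were higher and 1 lower, while 0 of the 16 endothelial markers were higher and 8 lower. Over all genes 9.4% were higher and 5.38% lower before adjustment, and 0.198% passed as higher. These shares are the background for the list counts that follow. The part that the share of adipocytes, endothelium, epithelium or muscle in each array had in the values of the 10 genes was not tested.

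**Figure D3:**
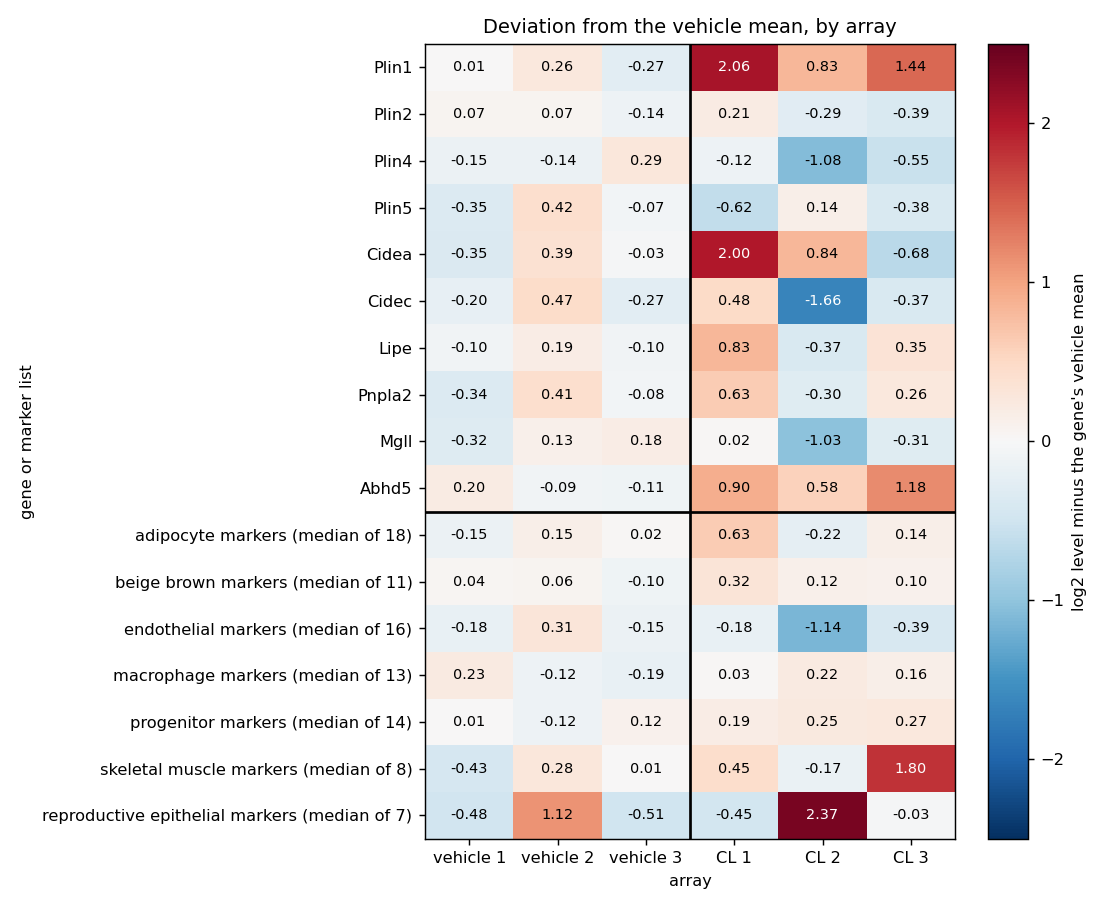
Colour scale of the log2 level on each array (columns) minus the mean of the 3 vehicle arrays, for the 10 genes and, under the line, for the medians of marker lists. CL replicate 1 is above vehicle in most genes (2.06 for Plin1 and 0.83 for Lipe), and CL replicate 2 is below it in Cidec (−1.66), Plin4 (−1.08) and Mgll (−1.03).

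Subtracting 1 gene from another on the same array removes only what shifts both by the same log2 amount, and what moves them unequally stays. The change in such a difference between groups was tabulated for all 45 pairs as a description. The groups did not overlap in 16 pairs, and over all pairs of genes on the array this happened in 20.9%. Plin1 took part in 7 of the 16, Abhd5 in 4, and 5 held neither. Plin1 and Abhd5 already stood apart between groups alone, so their pairs partly restate that, and the 20.9% is not matched for it. Since these 10 genes share the same 6 arrays and the pairs share genes, the pairs are not independent. With 3 arrays against 3, the smallest two-sided p of an exact permutation test is 0.10, so no p is given for single pairs.

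The difference between Plin1 and Lipe was 0.35, 0.32 and 0.07 in vehicle and 1.47, 1.44 and 1.34 in CL. The CL values lay close together (SD 0.07), although the same 3 arrays spread over more than 1 log2 unit in each gene alone, and the shift between groups was 1.17. Plin1 minus Plin4 was 0.04, 0.28 and −0.69 in vehicle and 2.06, 1.79 and 1.87 in CL, the widest shift among the 45 pairs at 2.03. Against Mgll the shift of Plin1 was 1.88, against Pnpla2 it was 1.24, and against Cidec it was 1.96, none of them overlapping, nor did the groups overlap against Plin2. The seventh gene was Plin5, which was below background in 4 arrays, so that its pairs set Plin1 against a dim signal and no shift is given. Against Cidea and Abhd5 the groups overlapped, with a shift of 0.55 against Abhd5.

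Within the enzymes, Pnpla2 minus Mgll was −1.27, −0.96 and −1.50 in vehicle and −0.64, −0.51 and −0.67 in CL, a shift of 0.64 with no overlap. Lipe minus Mgll shifted by 0.71, also with no overlap, so that both upstream lipases gained on Mgll in every CL array, while none of the 3 genes passed the test alone. Lipe minus Pnpla2 hardly moved, with a shift of 0.07 and overlapping groups. Plin4 minus Pnpla2 had 3 nearly equal CL values, −2.45, −2.49 and −2.52 (SD 0.03), and vehicle values of −1.52, −2.25 and −1.33. Plin2, Plin4, Cidec and Mgll minus Abhd5 shifted by −1.04, −1.48, −1.40 and −1.33, with no overlap in these 4 pairs.

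**Figure D4:**
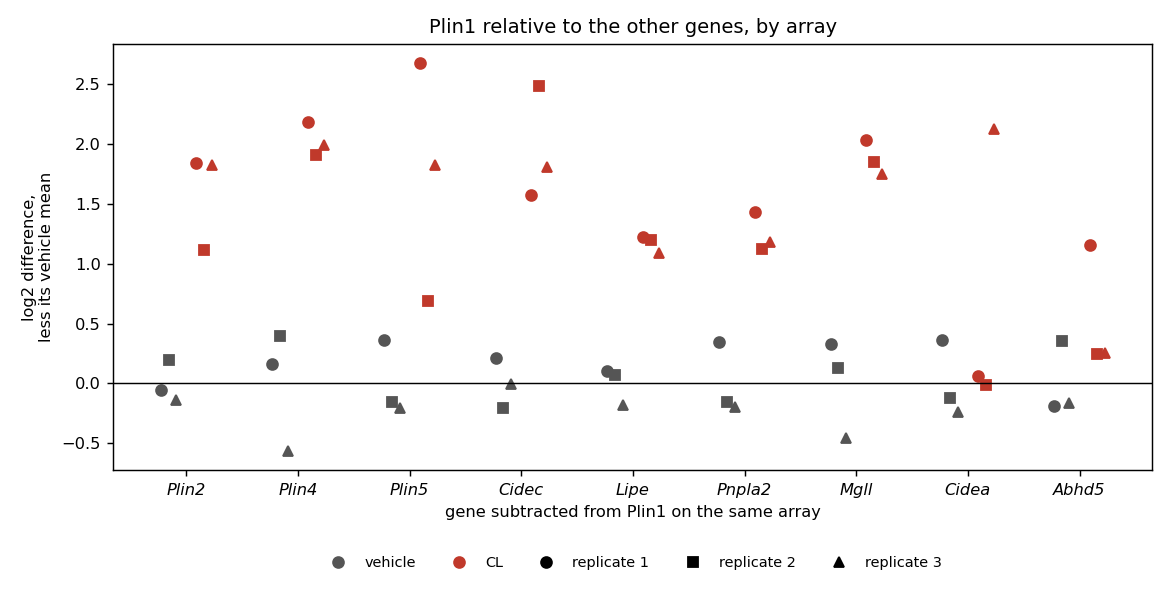
Log2 difference between Plin1 and each other gene on the same array, less its mean over the vehicle arrays (vertical axis), for 3 vehicle and 3 CL arrays marked by replicate. All CL points lie above all vehicle points for 7 of the 9 genes, the exceptions being Cidea and Abhd5, and the CL points against Lipe (SD 0.07) lie closest together.

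For each gene above background, the genes whose levels ran most like it over the 6 arrays were sought among 12218 others by Pearson's r, as a description. They were Rrad (0.992) and Cd109 (0.990) for Plin1, Pnpla7 (0.994) and Gmnn (0.991) for Abhd5, Gipc3 (0.997) and Timp4 (0.992) for Cidec, and Myocd (0.995) and Ttll3 (0.981) for Pnpla2. For Plin4 they were Kcna5 (0.990) and Sox17 (0.981), for Lipe Car7 (0.986) and Fgfr3 (0.982), for Mgll Crocc (0.990) and Tmem88 (0.987), for Plin2 Stom (0.971) and Cry1 (0.969), and for Cidea Psma2 (0.982) and then Psmd12. Each r is the highest of many over only 6 arrays, the 10 genes themselves being left out of the search, and none of the genes named passed the adjusted threshold between groups.

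Of 12 further coat and droplet biogenesis genes measured of 16 listed, none passed the adjusted threshold (limma), 2 were higher and 1 lower before adjustment, and their median log2 fold change was 0.21. Bscl2, which encodes seipin, the protein that organises budding droplets at the endoplasmic reticulum, had levels from 6.96 to 7.14 in vehicle and of 7.81, 7.86 and 7.63 in CL. The groups were well apart and each was tight, with a difference of 0.74 (SE 0.14) and an adjusted p of 0.0730 (limma). Fitm2, a droplet-forming protein of the endoplasmic reticulum, differed by 0.87 (SE 0.24, adjusted p 0.151), and Cav1, the caveolar coat protein that endothelium also makes in quantity, by −0.42 (SE 0.17, adjusted p 0.309). Aup1, a droplet surface protein, differed by 0.19 (adjusted p 0.579).

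Of 15 regulators of lipolysis, other lipases and fatty acid handling genes, 1 passed, 3 were higher and 2 lower before adjustment, and the median was 0.21. Lpl, the lipoprotein lipase that frees fatty acids from circulating triglyceride, was at 10.12, 10.23 and 10.16 in vehicle and at 10.96, 11.01 and 11.03 in CL. It rose by 0.84 (SE 0.13), or 1.78-fold, with an adjusted p of 0.0415 (limma), and both groups were tight. The call did not survive the loss of any 1 of the 6 arrays, the adjusted p then lying between 0.0891 and 0.167 with a difference between 0.81 and 0.86, and it was also lost with quantile or cyclic loess scaling (adjusted p 0.0715 and 0.0685), with the mean of its probe sets (0.0718) and with the replicate block (0.102). Lpl also stands among markers of lipid-laden macrophages, where Gpnmb rose by 2.10 (SE 0.33, adjusted p 0.0434), a call lost on leaving out any array but vehicle replicate 2 (adjusted p up to 0.173). In that list 2 of 11 genes passed, 5 were higher and 1 lower before adjustment, and the median was 0.39. Trem2 differed by 0.39 and Cd9 by 0.71, whereas Cd36 (−0.65) and Fabp5 (−0.21), which stand in the same list, had lower means in CL. The summed level of 13 macrophage markers ran from 13.16 to 13.51 in vehicle and from 13.29 to 13.49 in CL, with Lyz2 the brightest (11.44 to 11.70).

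The inhibitor of Pnpla2 was measured as well. G0s2 had levels of 7.92, 7.14 and 8.06 in vehicle and of 8.80, 8.58 and 8.82 in CL. All CL arrays were above all vehicle arrays, with a difference of 1.03 (SE 0.24) and an adjusted p of 0.106 (limma). Both Abhd5, which activates the lipase, and G0s2, which inhibits it, were thus higher in every CL array, and neither passed the test.

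Of the same 15 genes, Aqp7, Cd36 and Fabp4 had every CL array below every vehicle array, beside 8.72% of all genes. In 4 of the 15, Lpl and G0s2 among them, every CL array lay above every vehicle array, beside 11.2% of all genes. Fabp5, a fatty acid binding protein like Fabp4, overlapped between groups with a difference of −0.21. Aqp7, the glycerol channel of adipocytes and of capillary endothelium, was at 9.12, 9.61 and 9.37 in vehicle and at 8.82, 7.70 and 8.46 in CL, a difference of −1.04 (SE 0.27, adjusted p 0.141, limma). Cd36, a fatty acid carrier, differed by −0.65 (SE 0.17, adjusted p 0.141) and Fabp4, a fatty acid binding protein, by −0.26 (SE 0.15, adjusted p 0.478). Aqp7, Cd36 and Fabp4 are made by fat endothelium too, and 14 of the 16 endothelial markers had a lower mean in CL, with a median of −0.54. Pecam1, Cdh5 and Kdr differed by −0.75, −0.52 and −0.53, and the part of endothelium in these values was not tested.

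Upstream of the lipases, 25 of 31 genes of adrenergic, cAMP and insulin signalling were measured. None passed the adjusted threshold (limma), 6 were higher and 4 lower before adjustment, and the median was 0.18. Prkar2b, the regulatory subunit of protein kinase A that is prominent in adipocytes, differed by 1.08 (SE 0.23, adjusted p 0.0866), from 6.15, 5.83 and 5.78 to 7.49, 6.65 and 6.86. Irs2, an insulin receptor substrate, differed by 0.77 (SE 0.20, adjusted p 0.134), and Adcy4, an adenylyl cyclase, by −0.71 (SE 0.22, adjusted p 0.180). Prkaca, the catalytic subunit of protein kinase A, was higher in every CL array by a small step of 0.41 (SE 0.13, adjusted p 0.204), and Gnai2, which encodes an inhibitory G protein subunit, differed by 0.19.

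Of 10 transcription factors and co-activators of the PPAR and C/EBP families and their partners, none passed (limma), 2 were higher and 1 lower before adjustment. Pparg, the nuclear receptor that drives adipocyte genes, Plin1 and Cidec among them, had levels of 9.17, 9.70 and 9.39 in vehicle and of 9.23, 8.17 and 8.72 in CL, a difference of −0.71 (SE 0.26, adjusted p 0.258). CL replicate 2 was its lowest array, as in Cidec, and was the lowest CL array in 7 of the 10 genes. Cebpa, a partner of Pparg in adipocytes, differed by 0.59 (SE 0.28, adjusted p 0.367), Srebf1, a regulator of lipid synthesis, by 0.47 (adjusted p 0.283) and Ppargc1b by 0.39 (adjusted p 0.308).

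Among adipocyte markers outside the droplet, Adipoq, which encodes adiponectin, had levels of 6.65, 7.09 and 7.16 in vehicle and of 8.55, 7.72 and 8.36 in CL. Its groups did not overlap, like those of Plin1, with a difference of 1.24 (SE 0.24, adjusted p 0.0730, limma), and CL replicate 2 was again the lowest of its group. Retn, which encodes resistin, had the same mean in both groups, with a difference of 0.00 (SE 0.38, adjusted p 0.998), and its CL arrays ran from 7.50 in replicate 2 to 9.05 in replicate 1. Among the 10 genes and the adipocyte markers named so far, Plin1, Abhd5 and Adipoq were higher in every CL array. Retn, Car3 and the other 8 of the 10 genes overlapped. Their intervals include 0 except that of Plin4, which had a lower mean in CL. Aqp7, which capillary endothelium also makes, was lower in every CL array. None of these genes passed the adjusted threshold. Of 11 beige and brown markers none passed, 3 were higher and 0 lower before adjustment, and 5 had a mean below background. Cox8b differed by 2.36 (SE 0.49, adjusted p 0.0844) and Cox7a1 by 0.41. All 3 vehicle arrays of Ucp1 (3.35 to 3.51) were below background, so no difference is given for it. Its CL arrays, at 6.54, 4.12 and 3.99, all lay above its vehicle arrays.

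**Figure D5:**
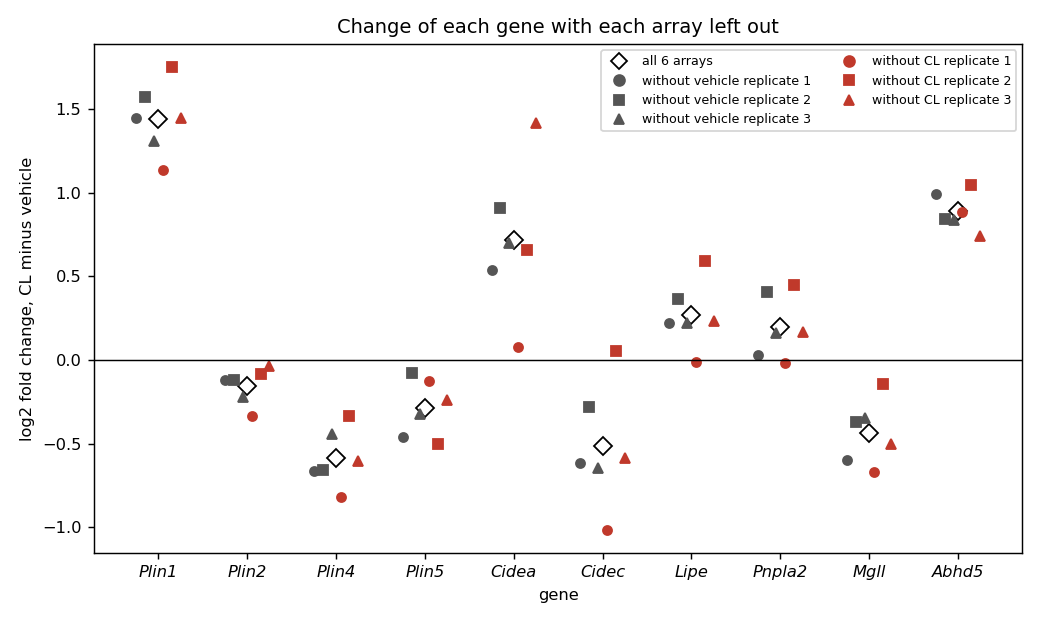
Log2 fold change of each gene, CL minus vehicle (vertical axis), with all 6 arrays (open diamond) and with each array left out in turn. Plin1 (1.13 to 1.75) and Abhd5 (0.74 to 1.04) stay above 0, while Cidec, Lipe and Pnpla2 cross 0.

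Leaving out single arrays showed how much of each value 1 array carried. Plin1 was least without CL replicate 1 (1.13) and greatest without CL replicate 2 (1.75), its adjusted p running from 0.0937 to 0.224 (limma). Without both arrays high in epithelial genes, an alternative chosen after seeing the data, Plin1 differed by 1.88 and Abhd5 by 1.00. In that alternative Lipe (0.69) and Pnpla2 (0.65) joined Plin1 and Abhd5 as higher before adjustment, beside 1222 of all 22180 genes. None of the 10 passed after adjustment. In Lipe, Pnpla2 and Plin1 the arrays left out were the highest vehicle array and the lowest CL array. A larger difference without them was thus built in, and the part of epithelial cells in it was not tested. Without CL replicate 1, by contrast, Plin4 (−0.82), Cidec (−1.01) and Mgll (−0.67) were lower before adjustment, beside 943 of the 22180 genes. CL replicate 1 was the highest CL array in each of these genes, so lower values without it were built in as well. The adjusted p of Plin1 ran from 0.0507 to 0.349 and that of Abhd5 from 0.0569 to 0.318 over all 19 alternatives tried.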

How the data were processed

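Total RNA was extracted with Trizol from the SVF and labelled with biotin, per the labels. The authors deposited log2 values made with RMA in Affymetrix Expression Console (versions not given in the sources used here), which corrects background, normalises arrays by quantiles and summarises probes, so an absolute change common to all genes is not kept and folds of dim genes are compressed. Of 41345 probe sets, 23521 carried 1 symbol, 1820 several and 16004 none in the platform annotation, and 21994 of 22180 genes matched RefSeq by gene number. Groups follow the treatment named in each sample's description. Groups were compared with limma 3.58.1 in R 4.3.3 (lmFit and eBayes, two-sided, Benjamini-Hochberg over all 22180 genes, threshold 0.05), and figures and counts were made in Python 3.11.15. The methods name Student's test or the Mann-Whitney test for 2 groups in the study in general, and ANOVA for several groups, without saying which applied to the arrays. The fit was tested on simulated data. Array medians over the genes tested ran from 4.27 to 4.37; 39.8% of genes had a mean below background. Arrays hold no read depth, and their number limits the precision.

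The 10 genes and the lists were chosen with earlier results of these data known. All 10 were named. From each pathway list, every gene past the threshold was named. Then came the 3 of lowest p among the others and the 2 of highest level. From marker lists the first 3 were to be named, as far as they were measured. That was done only for adipocyte, beige and brown, macrophage, lipid-laden macrophage, progenitor and endothelial markers. Car3 was named as the brightest adipocyte marker, outside this rule. Other marker lists were named in part or not at all. Mural markers (2 of 12 passed as higher) and mast cell markers (2 of 9 passed as higher) were among those not named. The markers Cfd and Ly6a and listed genes without a probe set of 1 symbol were not analysed here. Alternatives covered the test, variance model, scaling, filters, probe sets, array weights, a replicate block and leaving out arrays. Promoter sequences are from RefSeq, build GRCm38.p6. The build of the array annotation is not given in the sources used here, so no positions of probe sets are given.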

Additional observations from a re-analysis of the deposited data

How the results depend on the processing

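The count of genes past the threshold, 72 with limma, depended on the fit. It was 153 with a variance trend, 177 with a robust trend and 161 when genes under the median level were dropped. Student's test gave 0 after adjustment and 2608 before it. Leaving out 1 array gave 0 to 31, with 0 for each CL array left out, and 0 without vehicle replicate 2 and CL replicate 2. The other 7 alternatives gave 53 to 91. None of the 10 droplet and lipolysis genes passed under any alternative with adjustment (members tested fell to 9 above background and 8 above the median level), and Student's test without it gave 2, Plin1 and Abhd5. Lpl lost its call in 12 of 19 alternatives and Gpnmb in 10. The replicate numbers of the labels do not state a shared animal or day, so they were not taken as pairs. The deviations of same-numbered arrays correlated at −0.00, 0.11 and 0.05, and those of differently numbered arrays between −0.10 and 0.06. With the replicate block 15 genes passed and none of the 10, and Lpl had an adjusted p of 0.102. Cidec changed sign without CL replicate 2 (0.06) and without vehicle replicate 2 and CL replicate 2 (0.29), and Lipe (−0.0115) and Pnpla2 (−0.018) changed sign without CL replicate 1. Leaving out 1 array gave −1.01 to 0.06 for Cidec, −0.0115 to 0.59 for Lipe and −0.018 to 0.45 for Pnpla2, and leaving out vehicle replicate 2 and CL replicate 2 gave 0.69 for Lipe and 0.65 for Pnpla2. These were the only reversals among the 10 genes, and the cause was not tested. Plin5 was near background, where differences have little meaning.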

Other observations

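Outside the rule for named genes, Car3, Gpihbp1 and Lyz2 were named as the brightest of their lists, and Fabp5 beside Fabp4 and Cd36. A further 4 genes, of the signalling and marker lists, were picked after their values were seen. Npr3, the clearance receptor for natriuretic peptides, which stimulate lipolysis in human fat, was at 7.50, 8.40 and 7.78 in vehicle and at 7.21, 5.70 and 6.96 in CL, lower in every CL array by −1.27 (SE 0.38, adjusted p 0.180, limma). Hcar1, the lactate receptor that restrains lipolysis, differed by 0.95 (SE 0.30, adjusted p 0.196), whereas Hcar2, the receptor for ketone bodies, differed by −0.89 (SE 0.34, adjusted p 0.275). Lgals12, a lectin of the adipocyte lipid droplet, differed by 1.00 (SE 0.26, adjusted p 0.137) with no overlap between groups. None of the 4 passed the threshold.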
